A study of Mus musculus with 22 samples.

Results

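The 9 genes described here are the D-type cyclin genes *Ccnd1*, *Ccnd2* and *Ccnd3*, the kinase genes *Cdk4*, *Cdk6* and *Cdk16*, and the kinase inhibitor genes *Cdkn1a*, *Cdkn1b* and *Cdkn2c*. They were taken by symbol, matched to Ensembl gene IDs, and all 9 were among the 24296 genes that both count tables held. RNA was measured by sequencing in 22 libraries of 100 tdTomato+ pancreatic endocrine cells each, at postnatal day 9 (P9) and embryonic stage E14.5. *Isl1CKO* mice carried 2 floxed *Isl1* alleles (*Isl1* f/f), *Neurod1Cre* and the TomatoAi14 reporter, and gave 6 libraries at P9 and 5 at E14.5. Control mice gave 5 libraries at P9 and 6 at E14.5. The paper describes the embryonic controls as *Isl1* f/+ with the same Cre and reporter, gives the postnatal ones only as reporter controls, and allows *Isl1* f/+ or f/f controls in its methods, while the sample labels call all of them wild type. Male and female littermates on a C57BL/6 background were used. *Neurod1Cre* acts in endocrine precursors, so the sorted cells are a mixture of endocrine types, and in such bulk samples fewer cells of a type and less RNA per cell cannot be told apart.

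D-type cyclins are the regulatory partners of CDK4 and CDK6. The complexes phosphorylate the retinoblastoma protein in G1 phase, which frees E2F transcription factors to switch on the genes of DNA replication. CDKN2C (p18INK4c) binds CDK4 and CDK6 and keeps cyclins off, whereas CDKN1A (p21) and CDKN1B (p27) bind cyclin-kinase complexes. In mouse β-cells, cyclin D2 is needed for the postnatal growth of β-cell mass, and CDK4 is the kinase that this growth depends on. CDK16 is a PCTAIRE kinase that cyclin Y activates, so it is a relative of CDK4 and CDK6 but not a kinase of the D cyclins.

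The coding stretches that set these partnerships are shown so that the families can be compared, with the codons of the named motif in capitals (GENCODE M21 transcripts, GRCm38, 5′ to 3′). In the 3 D cyclins the capitals are the codons of the Leu-X-Cys-X-Glu motif that contacts pocket proteins, found once in each coding sequence and starting at codon 5 of *Ccnd1* (chromosome 7) and at codon 3 of *Ccnd2* (chromosome 6) and *Ccnd3* (chromosome 17).
Ccnd1: caccagCTCCTGTGCTGCGAAgtggagacc
Ccnd2: atggagCTGCTGTGCTGCGAGgtggacccg
Ccnd3: atggagCTGCTGTGTTGCGAGggcacccgg
In the kinases the capitals are the codons of the PSTAIRE-type helix, which faces the cyclin. They start at codon 50 of *Cdk4* (chromosome 10), codon 55 of *Cdk6* (chromosome 5) and codon 205 of *Cdk16* (chromosome X).
Cdk4: cttCCCGTCAGCACAGTTCGTGAGgtggcc
Cdk6: atgCCGCTCTCCACCATCCGCGAGgtggcg
Cdk16: gcaCCCTGTACTGCTATCCGGGAAgtatcc
In *Cdkn1a* (chromosome 17) and *Cdkn1b* (chromosome 6) the capitals are the codons of the cyclin-binding motif, from codon 18 and codon 30.
Cdkn1a: gtgtgcCGTTGTCTCTTCGGTcccgtggac
Cdkn1b: gcctgcAGAAATCTCTTCGGCccggtcaat
Along their aligned coding bases the D cyclins were 68.7% to 72.5% identical to each other and the kinases 68.9% to 70.9%. No 50-base window of the *Cdk16*, *Cdkn1b* or *Cdkn2c* transcripts was found in transcripts of another gene, and for the other 6 genes the share of such windows was 3.32% to 21.6%. The highest shares were in *Ccnd1*, whose exons overlap *LTO1* on the opposite strand by 1100 exonic bases, and in *Cdk4*, which overlaps *Tspan31* by 641. The authors counted with GENCODE M8 and no use of strand is stated, so how reads from these stretches were assigned was not tested and the counts of *Ccnd1* and *Cdk4* are uncertain there.

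Depth was 8477482 to 13580985 counts per library. Levels are given as CPM, counts scaled to a common library size with TMM factors over all 22 libraries, and levels of different genes are compared only as CPM per kilobase of exon. All 7 endocrine defining genes looked at, *Chga*, *Chgb*, *Neurod1*, *Pax6*, *Nkx2-2*, *Insm1* and *Isl1*, were present in each group. *Isl1* averaged 964 ± 295 CPM in *Isl1CKO* and 456 ± 61.7 CPM in control at P9 (SD, n = 6 and 5), and 658 ± 62.6 CPM in *Isl1CKO* and 921 ± 84.7 CPM in control at E14.5 (SD, n = 5 and 6). The counts sum all exons of *Isl1*, including any that the floxed allele keeps, and at P9 they go against the label, so *Isl1CKO* below means the libraries labelled so. By staining, the paper found no ISL1 protein in endocrine nuclei of *Isl1CKO* islets, which RNA counts do not measure. Islet hormone genes took 14.0% to 30.2% of the counts of *Isl1CKO* libraries and 51.1% to 56.4% of those of control libraries at P9. At E14.5 they took 0.71% to 2.49% in *Isl1CKO* and 2.44% to 6.17% in control. Mitochondrial genes took 2.68% to 3.89% of the counts in *Isl1CKO* and 1.94% to 2.69% in control at P9, and 1.87% to 2.32% in *Isl1CKO* and 2.07% to 2.47% in control at E14.5. The paper calls the libraries biological replicates, whereas the labels name no animals, and the p-values measure the spread between these libraries.

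*Ccnd2* (ENSMUSG00000000184) lies on chromosome 6 from 127125162 to 127152193 on the minus strand of GRCm38. It was lower in *Isl1CKO* than in control cells at P9 and higher in *Isl1CKO* than in control cells at E14.5. At P9 its lowest, median and highest levels were 592, 686 and 827 CPM in the 6 *Isl1CKO* libraries, against 1226, 1263, 1209, 1199 and 1323 CPM in the 5 control libraries. No *Isl1CKO* library reached the lowest control. The difference was 1.79-fold, -0.84 ± 0.12 on the log2 scale (estimate ± standard error, SE, adjusted p = 0.00055, edgeR's quasi-likelihood test with Benjamini-Hochberg adjustment over 13964 genes). At E14.5 the 5 *Isl1CKO* libraries had 234, 148, 210, 87.2 and 150 CPM, against a lowest, median and highest of 37.7, 62.1 and 81.8 CPM in the 6 control libraries. Here the 5 *Isl1CKO* libraries all exceeded the highest control, library 4 by the smallest margin. The difference was 2.68-fold, 1.42 on the log2 scale (SE 0.24, adjusted p = 0.0066, edgeR, over 15960 genes). The effect at P9 minus the effect at E14.5 was -2.25 (SE 0.27, adjusted p = 7.9e-05, from an edgeR fit of all 22 libraries with 17265 genes). The opposite directions of *Ccnd2* were known from earlier results of these data when this test was chosen, so its p-value is not independent of that choice. From high to low the groups were ordered P9 control, P9 *Isl1CKO*, E14.5 *Isl1CKO* and E14.5 control, and no neighbours in this order overlapped.

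With the libraries scaled by total counts alone, which puts the median of all genes 0.68 higher in *Isl1CKO* at P9, the log2 fold change of *Ccnd2* at P9 was -0.17 (adjusted p = 0.35, edgeR), or -0.86 relative to that median. At E14.5 the summed CPM of 8 macrophage markers was 27.6 to 90.6 in *Isl1CKO* libraries and 28.1 to 43.2 in control libraries. Without the 3 *Isl1CKO* libraries in which they were highest (66.9, 90.6 and 42.9 CPM, the last inside the control range), the log2 fold change of *Ccnd2* was 1.63 (adjusted p = 0.025, edgeR). Of these 8 markers Tyrobp was at 0 in all E14.5 control libraries and none was at 0 throughout E14.5 *Isl1CKO*. The summed CPM of 5 endothelial markers at P9 was 11.0 to 25.4 in *Isl1CKO* and 1.84 to 7.27 in control. Only 1 of these 5, *Esam*, passed the filter on low counts at P9. For the 5 hepatoblast markers in the tables, of 6 looked for, the sum at E14.5 was 38.3 to 192 in *Isl1CKO* and 14.1 to 48.7 in control. The summed CPM of 8 acinar markers at P9 was 6.54 to 211 in *Isl1CKO* and 53.1 to 980 in control, with Ptf1a and Pnlip at 0 in both groups, and that of 6 mesenchyme markers at E14.5 was 10.0 to 19.4 in *Isl1CKO* and 14.2 to 48.8 in control. The summed CPM of 5 duct and trunk markers at P9 was 68.4 to 498 in *Isl1CKO*, highest in library 3, and 64.0 to 103 in control. At E14.5 it was 162 to 248 in *Isl1CKO* and 124 to 282 in control. That of 5 neural crest and glia markers at E14.5 was 9.77 to 15.9 in *Isl1CKO* and 9.08 to 49.1 in control. The part of these cells, of the islet hormone shares, and of the higher mitochondrial share at P9, in the results was not tested.

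**Figure D1:**
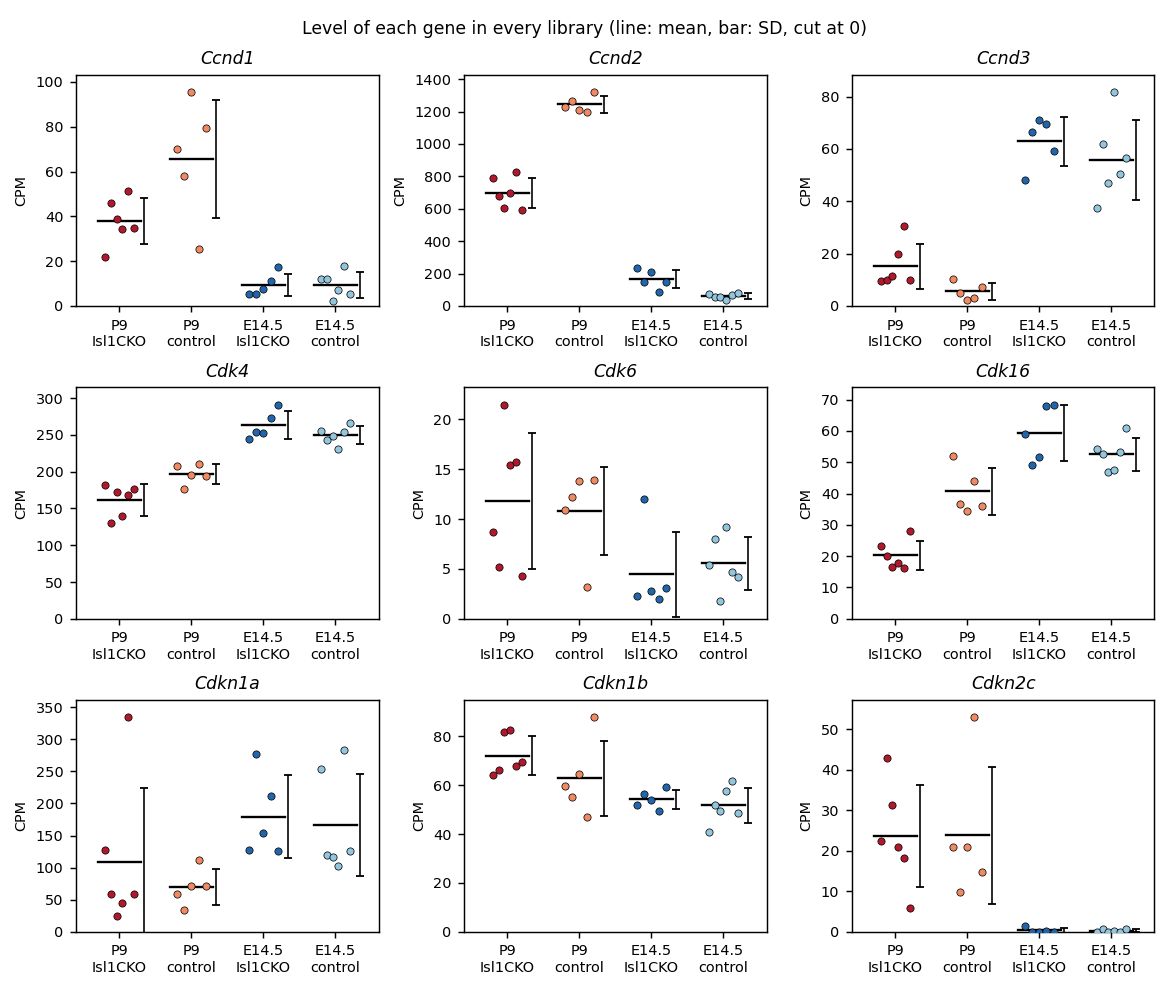
CPM of each of the 9 genes in every library, with 1 point per library, a line at the group mean and a bar for the SD, cut at 0. The 6 P9 *Isl1CKO* libraries sit between 592 and 827 CPM of *Ccnd2*, below all P9 control libraries, and the 5 E14.5 *Isl1CKO* libraries between 87.2 and 234 CPM, above all E14.5 control libraries.

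At P9 2 of the 9 genes were called at an adjusted p under 0.05, *Ccnd2* and *Cdk16*, both lower in *Isl1CKO*, where 4.81% of all genes tested were called, 2.66% higher and 2.14% lower. The groups did not overlap for these 2 genes, where they did not overlap for 5.44% of all genes tested. At E14.5 8 of the 9 genes passed the filter on low counts and only *Ccnd2* was called, where 1.43% of all genes were called, 0.602% higher and 0.827% lower. Non-overlapping groups were found for 2.42% of the genes tested at E14.5. The effect differed between the ages for 2 of the 9 genes, again *Ccnd2* and *Cdk16*, both more negative at P9, where it did so for 2.08% of all genes tested, 1.23% more positive and 0.851% more negative. The median log2 fold change of the genes tested was -0.020 at P9 and 0.089 at E14.5, beside 0.023 and -0.0045 for all genes. The 9 genes were chosen with earlier results of these data known, so these counts and shares do not test them as a set. The paper itself lists *Cdk16* among genes lower in *Isl1CKO* at P9.

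**Figure D2:**
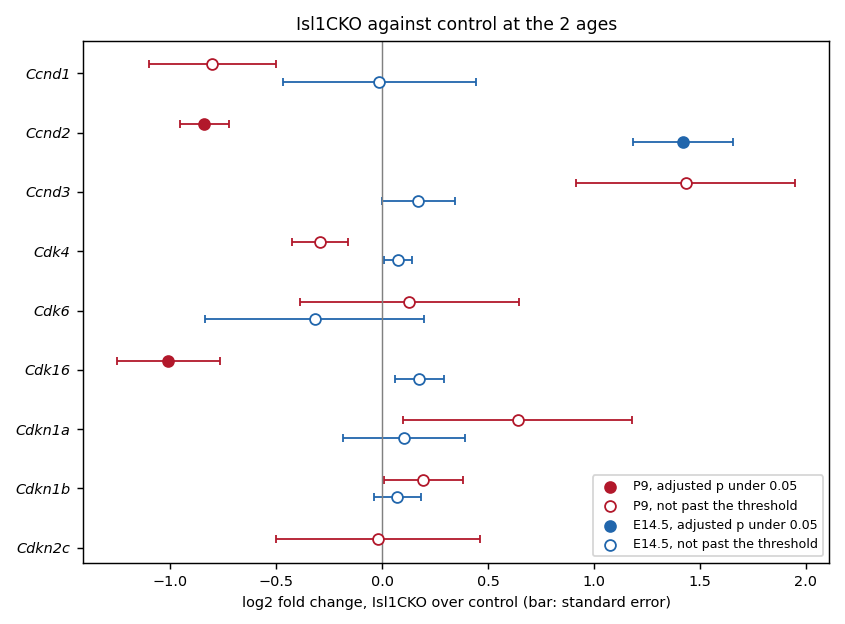
Log2 fold change of *Isl1CKO* over control for each gene at P9 and E14.5, with bars for the standard error and filled points for an adjusted p under 0.05 from edgeR. *Ccnd2* lies at -0.84 at P9 and at 1.42 at E14.5, *Cdk16* at -1.01 at P9, and *Cdkn2c* has no point at E14.5 because it was too low to be tested.

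*Ccnd1* and *Ccnd3* did not pass the test at either age. *Ccnd1* had 21.8, 36.7 and 51.4 CPM as the lowest, median and highest of the P9 *Isl1CKO* libraries, against 69.9, 58.1, 95.7, 25.6 and 79.4 CPM in the P9 control libraries. All control libraries but number 4 lay above every *Isl1CKO* library (log2 fold change -0.80, SE 0.30, adjusted p = 0.16, edgeR). Without control library 4 the value was -1.01 with an adjusted p of 0.041 (edgeR). Of 11 fits with 1 library left out only this 1 called *Ccnd1*, and 0 of 9 other alternatives did. At E14.5 *Ccnd1* averaged 9.34 ± 5.02 CPM in *Isl1CKO* and 9.43 ± 5.68 CPM in control (SD, n = 5 and 6).

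*Ccnd3* had 9.43, 10.6 and 30.7 CPM as the lowest, median and highest of the P9 *Isl1CKO* libraries, against 10.5, 5.13, 2.20, 3.16 and 7.09 CPM in the P9 control libraries. The groups overlapped only through control library 1, and the log2 fold change was 1.43 (SE 0.52, adjusted p = 0.14, edgeR). DESeq2 gave an adjusted p of 0.033 and an edgeR fit over all 22 libraries one of 0.010, so the call depended on the test. At E14.5 *Ccnd3* averaged 62.9 ± 9.30 CPM in *Isl1CKO* and 55.9 ± 15.3 CPM in control (SD, n = 5 and 6, log2 fold change 0.17, adjusted p = 0.78, edgeR).

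Within a library, the 3 D cyclins can be set against each other as shares of their summed counts per kilobase, which do not depend on the scaling between libraries. They do depend on the length used, here all annotated exons of a gene merged (4709 bases for *Ccnd1*, 9409 for *Ccnd2* and 8775 for *Ccnd3*). Summed counts of *Ccnd2* and *Ccnd3* were close in E14.5 control (5940 and 5383), so their order there can change with the lengths chosen. *Ccnd2* made up 88.4% ± 2.74 of the D-cyclin transcripts in *Isl1CKO* and 90.2% ± 3.53 in control at P9 (SD, n = 6 and 5). At E14.5 it made up 64.2% ± 11.7 in *Isl1CKO* and 44.2% ± 10.5 in control (SD, n = 5 and 6), with 1 *Isl1CKO* library, number 4 at 47.4%, inside the control range of 26.9% to 53.9%. *Ccnd3* made up 1.2% to 3.41% of the D-cyclin transcripts in P9 *Isl1CKO* libraries and 0.168% to 0.817% in P9 control libraries, and these ranges did not overlap. At E14.5 its share was 17.5% to 40.5% in *Isl1CKO* and 28.8% to 62.8% in control. *Ccnd1* held 9.65% ± 2.42 in *Isl1CKO* and 9.38% ± 3.51 in control at P9, and 7.87% ± 4.77 in *Isl1CKO* and 12.9% ± 6.98 in control at E14.5. With these lengths *Ccnd2* was the most abundant D cyclin in every P9 library, and at E14.5 in all *Isl1CKO* libraries. *Ccnd3* was the most abundant in 2 of 6 E14.5 control libraries.

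**Figure D3:**
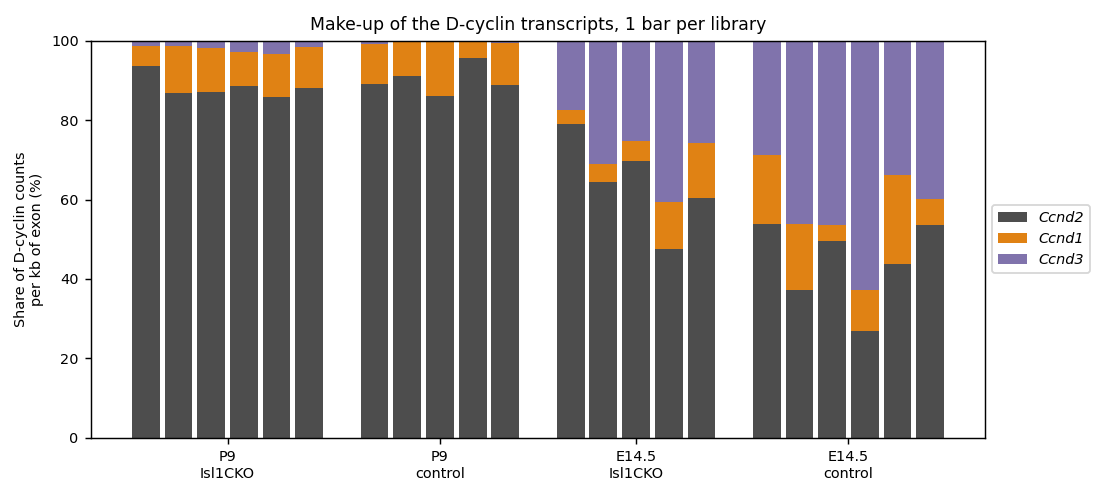
Share of *Ccnd2*, *Ccnd1* and *Ccnd3* in the D-cyclin counts per kilobase of exon, with 1 bar per library in the 4 groups. *Ccnd2* fills 85.9% to 95.6% of every P9 bar, whereas at E14.5 *Ccnd3* takes 17.5% to 40.5% in *Isl1CKO* and 28.8% to 62.8% in control.

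Of the kinases, *Cdk16* was lower in *Isl1CKO* at P9. Its lowest, median and highest levels were 16.1, 18.9 and 28.1 CPM in the P9 *Isl1CKO* libraries, against 52.1, 36.7, 34.4, 44.0 and 36.1 CPM in the P9 control libraries. All *Isl1CKO* libraries lay below all control libraries, a 2.01-fold difference (log2 fold change -1.01, SE 0.24, adjusted p = 0.026, edgeR). At E14.5 *Cdk16* had 59.0, 49.2, 51.8, 68.0 and 68.4 CPM in *Isl1CKO*, against a lowest, median and highest of 46.8, 52.8 and 61.1 CPM in control, and these ranges overlapped (log2 fold change 0.18, SE 0.11, adjusted p = 0.62, edgeR). The effect at P9 minus that at E14.5 was -1.18 (SE 0.23, adjusted p = 0.0078, edgeR). The P9 call was lost with no filter on low counts (log2 fold change -0.98, adjusted p = 0.064), with total counts alone (log2 fold change -0.34, adjusted p = 0.35) and without control library 1 or 4 or *Isl1CKO* library 3 or 4 (-0.98 to -0.91, adjusted p up to 0.074). The difference between the ages was not called without the 3 E14.5 *Isl1CKO* libraries highest in macrophage markers (-1.04, adjusted p = 0.17, edgeR) or with total counts alone (-0.55, adjusted p = 0.13).

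*Cdk16* (ENSMUSG00000031065) lies on chromosome X from 20687954 to 20699880 on the plus strand of GRCm38, and mice of both sexes were used. *Xist*, the RNA that coats the inactive X of females, was above 50 CPM in 2 of 6 *Isl1CKO* and 3 of 5 control libraries at P9. Among libraries with *Xist* above that level, *Cdk16* was at 17.9 to 28.1 CPM in *Isl1CKO* and 34.4 to 44.0 CPM in control. Among those below it, *Cdk16* was at 16.1 to 23.2 CPM in *Isl1CKO* and 36.1 to 52.1 CPM in control. No P9 *Isl1CKO* library reached a P9 control library in *Cdk16*, so any split of the libraries keeps the groups apart. The part of sex was not tested.

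*Cdk4* was the most abundant kinase of the 3, at 49.7 ± 6.53 CPM per kilobase in P9 *Isl1CKO* and 60.7 ± 4.18 in P9 control libraries, and at 80.9 ± 5.85 in E14.5 *Isl1CKO* and 76.9 ± 3.77 in E14.5 control libraries. Its lowest, median and highest levels at P9 were 130, 171 and 182 CPM in *Isl1CKO*, against 208, 176, 196, 211 and 195 CPM in control. Only the highest *Isl1CKO* library reached into the control range, but the gene did not pass the test (log2 fold change -0.29, SE 0.13, adjusted p = 0.26, edgeR), and with total counts alone the sign turned, to 0.37. At E14.5 *Cdk4* averaged 263 ± 19.0 CPM in *Isl1CKO* and 250 ± 12.3 CPM in control (SD, n = 5 and 6). *Cdk6* was far lower, at 0.844 ± 0.487 CPM per kilobase in P9 *Isl1CKO* and 0.772 ± 0.317 in P9 control, and at 0.318 ± 0.304 in E14.5 *Isl1CKO* and 0.397 ± 0.193 in E14.5 control. Its groups overlapped at both ages (adjusted p = 0.95 at P9 and 0.89 at E14.5, edgeR).

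At P9 none of the 3 inhibitor genes passed the test between *Isl1CKO* and control cells. At E14.5 *Cdkn1a* and *Cdkn1b* did not pass, and *Cdkn2c* was too low to be tested. *Cdkn1a*, a target of p53, spread widely, with 24.4, 59.2 and 334 CPM as the lowest, median and highest in P9 *Isl1CKO*, against 58.7, 33.2, 71.3, 112 and 71.1 CPM in P9 control. The highest value was that of *Isl1CKO* library 5, and with that library left out the fold change of 0.64 on the log2 scale (SE 0.54, adjusted p = 0.62, edgeR) became -0.14. At E14.5 *Cdkn1a* averaged 179 ± 64.7 CPM in *Isl1CKO* and 167 ± 79.6 CPM in control (SD, n = 5 and 6). *Cdkn1b* was steadier, at 72.1 ± 8.05 CPM in *Isl1CKO* and 62.9 ± 15.4 CPM in control at P9, and 54.3 ± 3.82 CPM in *Isl1CKO* and 51.8 ± 7.24 CPM in control at E14.5 (adjusted p = 0.68 and 0.89, edgeR).

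*Cdkn2c* was found at P9 and hardly at E14.5. At P9 it had 5.94, 21.6 and 43.1 CPM as the lowest, median and highest in *Isl1CKO*, against 21.0, 9.81, 20.9, 53.0 and 14.7 CPM in control (log2 fold change -0.020, adjusted p = 0.99, edgeR). At E14.5 it had 26 counts in the 5 *Isl1CKO* libraries together and 24 counts in the 6 control libraries, with 0 counts in 3 libraries of each group. Each count of 0 allows up to 3 counts, so a difference at this level was not detectable at this depth.

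Ratios within a library show the same genes without scaling between libraries. *Ccnd2* per *Cdk4*, as counts per kilobase, was 1.16 to 1.80 in *Isl1CKO* and 1.97 to 2.48 in control at P9, and 0.110 to 0.330 in *Isl1CKO* and 0.0565 to 0.106 in control at E14.5. These ranges did not overlap at either age and lay in opposite order. *Cdk16* per *Cdk4* was 0.0707 to 0.118 in *Isl1CKO* and 0.130 to 0.186 in control at P9 with no overlap, and 0.144 to 0.185 in *Isl1CKO* and 0.139 to 0.170 in control at E14.5. The sum of the D cyclins per sum of *Cdk4* and *Cdk6* was 1.68 ± 0.316 in *Isl1CKO* and 2.40 ± 0.253 in control at P9, where 1 *Isl1CKO* library just entered the control range, and 0.333 ± 0.0799 in *Isl1CKO* and 0.194 ± 0.0236 in control at E14.5, with no overlap.

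The inhibitors can be set against the D cyclins in the same way. *Cdkn1b* per D-cyclin transcript was 0.146 to 0.243 in *Isl1CKO* and 0.0772 to 0.122 in control at P9, and 0.362 to 0.558 in *Isl1CKO* and 0.611 to 0.942 in control at E14.5. Neither pair of ranges overlapped, and the order was the reverse of that of *Ccnd2*, whose counts are part of the denominator. *Cdkn1a* per D-cyclin transcript overlapped between *Isl1CKO* and control at both ages, at 0.334 ± 0.305 in *Isl1CKO* and 0.135 ± 0.0629 in control at P9 and 2.02 ± 1.01 in *Isl1CKO* and 3.11 ± 1.31 in control at E14.5. These ratios describe transcripts and were given no test.

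**Figure D4:**
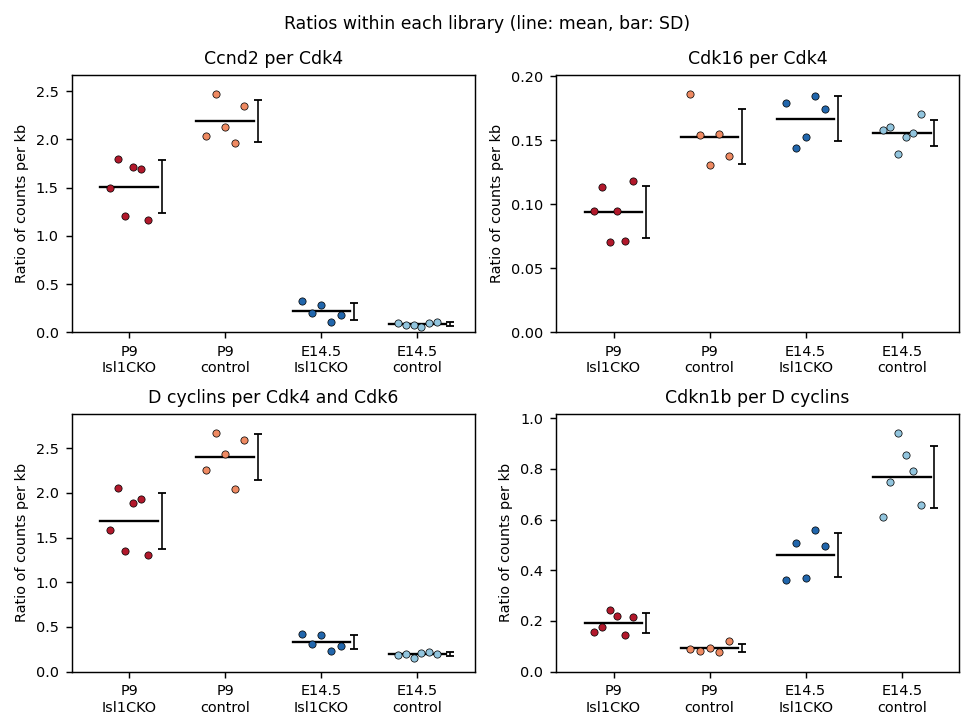
Ratios of counts per kilobase within each library for *Ccnd2* per *Cdk4*, *Cdk16* per *Cdk4*, D cyclins per *Cdk4* and *Cdk6*, and *Cdkn1b* per D cyclins, with 1 point per library, a line at the mean and a bar for the SD. *Ccnd2* per *Cdk4* lies at 1.16 to 1.80 in P9 *Isl1CKO*, below P9 control, and at 0.110 to 0.330 in E14.5 *Isl1CKO*, above E14.5 control.

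Between P9 and E14.5 control cells 6 of the 9 genes were called, among them all 3 D cyclins. *Ccnd2* averaged 1244 ± 50.4 CPM at P9 and 62.1 ± 16.5 CPM at E14.5 (SD, n = 5 and 6), a 20.0-fold difference (log2 fold change 4.32, SE 0.21, adjusted p = 8e-13, edgeR). *Ccnd1* was 6.97-fold higher at P9, at 65.7 ± 26.3 CPM against 9.43 ± 5.68 CPM at E14.5 (adjusted p = 2e-05, edgeR). *Ccnd3* ran the other way and was 9.92-fold lower at P9, at 5.61 ± 3.31 CPM against 55.9 ± 15.3 CPM at E14.5 (adjusted p = 4.4e-07, edgeR). *Cdkn2c* was higher at P9 (fitted log2 fold change 6.52, SE 1.04, adjusted p = 4e-05, edgeR), from the few counts at E14.5 given above. *Cdk4* was lower at P9 by a small amount (log2 fold change -0.34, SE 0.097, adjusted p = 0.0089, edgeR), with no overlap between the ages, where 20.9% of all genes tested did not overlap. *Cdkn1a* was lower at P9 (log2 fold change -1.27, SE 0.49, adjusted p = 0.049, edgeR), but leaving out 1 library ended this call in 15 of 22 cases (-1.52 to -1.05 over the 22, adjusted p up to 0.12), and so did RLE size factors (adjusted p = 0.053) and robust quasi-likelihood (adjusted p = 0.069).

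*Cdk6*, *Cdk16* and *Cdkn1b* did not pass between the ages, at log2 fold changes of 0.96, -0.37 and 0.28 (adjusted p = 0.18, 0.096 and 0.15, edgeR). Of the 9 genes 3 were thus called higher and 3 lower at P9, where 31.0% of all genes tested were called, 15.8% higher and 15.2% lower. P9 pancreas was dissociated with collagenase and then trypsin and E14.5 pancreas with trypsin alone, so age and dissociation cannot be told apart. Total counts alone shifted the median of all genes by -1.21 between the ages and turned the sign of *Cdk6* to -0.21 and of *Cdkn1b* to -0.90, while *Ccnd2* stayed at 3.15.

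The wider pathway was read from lists of genes. Between the genotypes edgeR called 4.81% of all genes tested at P9 and 1.43% at E14.5. At these shares few or 0 calls are usual in lists this short, so the counts do not show an unchanged pathway. Of 13 genes for pocket proteins and E2F factors, edgeR called 0 between *Isl1CKO* and control at P9 and 0 at E14.5, 0 had an unadjusted p under 0.05 at either age, and DESeq2 and limma also called 0. Their log2 fold changes ran from -0.75 to 1.24 at P9 and from -0.34 to 0.95 at E14.5. Of 14 other G1 cyclins and kinases 13 could be tested and 0 were called at either age by any of the 3 tools, with 2 at an unadjusted p under 0.05 at P9 and 0 at E14.5. Of 5 other inhibitors 4 could be tested and 0 were called by any tool, with 0 at P9 and 1 at E14.5 under that p. Of 20 regulators of D cyclins and inhibitors edgeR and limma called 0 at both ages, 2 had an unadjusted p under 0.05 at P9 and 1 at E14.5, and DESeq2 called 1, *Stat5a*, at P9 only. *Rb1*, which encodes the retinoblastoma protein itself, averaged 43.7 ± 15.5 CPM in P9 *Isl1CKO* and 48.2 ± 28.3 CPM in P9 control, and 19.6 ± 7.11 CPM in E14.5 *Isl1CKO* and 24.7 ± 6.84 CPM in E14.5 control. *Ccny*, whose product activates CDK16, averaged 74.5 ± 12.7 CPM in P9 *Isl1CKO* and 85.1 ± 27.6 CPM in P9 control.

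Genes of S phase and mitosis, which lie downstream of E2F, were also read, beside the same shares of all genes called. Of 20 such genes 0 were called at P9 by edgeR, DESeq2 or limma, with 2 at an unadjusted p under 0.05, and each tool called 1 at E14.5, *Mcm6*, which encodes a subunit of the replicative helicase and averaged 26.7 ± 6.33 CPM in *Isl1CKO* and 9.22 ± 5.62 CPM in control (log2 fold change 1.53, SE 0.34, adjusted p = 0.039, edgeR). *Mki67*, which encodes the proliferation marker Ki67, averaged 96.0 ± 50.3 CPM in P9 *Isl1CKO* and 90.4 ± 65.9 CPM in P9 control (log2 fold change 0.081, adjusted p = 0.97, edgeR). The summed CPM of the 20 genes was 488 to 1546 in *Isl1CKO* and 670 to 1530 in control at P9, and 132 to 271 in *Isl1CKO* and 111 to 243 in control at E14.5. This sum overlapped between the genotypes at both ages. Overlap was usual, since only 5.44% of all genes tested at P9 and 2.42% at E14.5 did not overlap.

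Between P9 and E14.5 control cells 15 of the 20 S phase and mitosis genes were higher at P9 and 0 lower, with a median log2 fold change of 2.75 beside -0.039 for all genes, of which 15.8% were called higher and 15.2% lower. *Pcna*, the replication clamp, averaged 125 ± 30.8 CPM at P9 and 22.6 ± 3.95 CPM at E14.5 (SD, n = 5 and 6). *Cdk1*, the mitotic kinase, averaged 63.7 ± 26.8 CPM at P9 and 4.65 ± 5.35 CPM at E14.5, and *Mcm5*, another helicase subunit, 31.9 ± 17.0 CPM at P9 and 1.60 ± 1.70 CPM at E14.5. Of the 13 pocket protein and E2F genes 6 were higher and 0 lower at P9, among them *E2f1* (log2 fold change 1.88, SE 0.47) and *Rb1* (0.96, SE 0.32). Of the regulators 7 of 20 were higher and 1 lower, 8 called of 20 where 31.0% of all genes were called. *Prlr*, which encodes the prolactin receptor, had the largest difference of the 20, at 190 ± 48.6 CPM in P9 control and 1.31 ± 0.927 CPM in E14.5 control, and *Mdm2*, which encodes a ubiquitin ligase of p53, was lower (log2 fold change -0.92). Among the other inhibitors *Cdkn3* was higher at P9 (log2 fold change 4.08, SE 0.97) and *Cdkn1c*, which encodes p57, was lower (-2.21, SE 0.54). Of the other G1 cyclins and kinases *Ccny* and *Cdk14* were higher at P9 (1.19 and 0.91) and *Cdk5* was lower (-1.54).

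**Figure D5:**
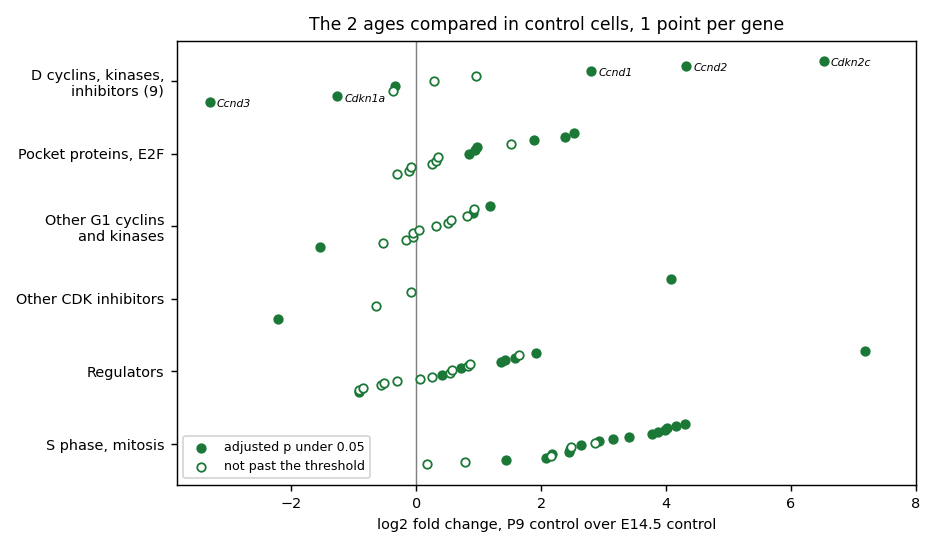
Log2 fold change of P9 control over E14.5 control for the 9 genes and for 5 lists of the pathway, with 1 point per gene and filled points for an adjusted p under 0.05 from edgeR. Of the S phase and mitosis genes 15 of 20 are filled and lie right of 0, and *Ccnd2* lies at 4.32 and *Ccnd3* at -3.31.

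Among the protein-coding genes whose log2(CPM + 1) followed *Ccnd2* most closely over the 22 libraries, of 10613 compared, were *Hivep2* (Pearson's r 0.97), *Sec24d* (0.96), *Insrr* (0.96) and *B830017H08Rik* (0.95). This is a description, since the libraries share ages and genotypes and fall into 2 clusters by age. *Hivep2* averaged 14.7 ± 4.02 CPM in *Isl1CKO* and 21.5 ± 5.38 CPM in control at P9, and 4.19 ± 1.36 CPM in *Isl1CKO* and 0.470 ± 0.547 CPM in control at E14.5. This is the same order of groups as in *Ccnd2*, by which *Hivep2* was picked, and its E14.5 control level was very low. *Insrr*, which encodes a relative of the insulin receptor, averaged 121 ± 24.2 CPM in *Isl1CKO* and 220 ± 39.6 CPM in control at P9, and 15.3 ± 4.83 CPM in *Isl1CKO* and 11.9 ± 3.63 CPM in control at E14.5.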

How the data were processed

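The deposited tables hold raw counts per Ensembl gene, 1 table per age and 1 column per library. The authors trimmed reads with cutadapt 1.18, removed ribosomal reads with Bowtie 1.2.2 and SortMeRNA, mapped the rest to GRCm38 with STAR 2.7.0c and GENCODE M8, and made the count tables with Rsubread, which skipped multi-mapping reads. Genes with fewer than 10 counts over the libraries of an age are absent from its table. Symbols and exons came from GENCODE M21, which matched 27456 of 27504 gene IDs at P9 and 27078 of 27124 at E14.5.

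These counts entered edgeR 4.0.16 under R 4.3.3 (filterByExpr, TMM, glmQLFit, glmQLFTest), within each age, and over all 22 libraries for the difference of effects and for the ages. Benjamini-Hochberg adjustment ran over every gene of a fit, and an adjusted p under 0.05 was a call. The standard error is the size of the log2 fold change divided by the square root of F. Each library's depth was 8477482 to 13580985 counts, and a count of 0 allows up to 3, for counting error only.

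All 9 genes are named in each comparison, with, of each pathway list, up to 6 called genes by smallest p, *Isl1*, and the 5 genes most correlated with *Ccnd2* among those with a mean of 50 or more counts, 1 of which is not reported here. *Rb1*, *Ccny* and *Mki67* between genotypes, *Stat5a* at P9, and *Xist*, were added after their values were seen. The genes and lists were chosen with earlier results of these data known. Alternatives changed the scaling, filter, test, dispersion, replicate number as a block and libraries used. DESeq2 1.42.0 and limma 3.58.1 served for these.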

Additional observations from a re-analysis of the deposited data

Results flagged for a closer look

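The *Isl1CKO* effect on *Ccnd2* at P9 minus that at E14.5 was -2.25 as a log2 difference, and that on *Cdk16* was -1.18, both tested in 1 edgeR fit of all 22 libraries. For *Ccnd2* the opposite directions were known before this test. Among 36 groups of 1 gene in 1 condition, 5 held a library whose gap to the nearest other was a large part of the group's range (Dixon's test at the 95% level, where chance gives about 1 in 20 groups). *Cdkn1a* was at 334 CPM in P9 *Isl1CKO* library 5, against 24.4 to 127 CPM in the rest of its group. *Cdk6* was at 3.16 CPM in P9 control library 4, below 10.9 to 13.9 CPM in the rest, and at 12.0 CPM in E14.5 *Isl1CKO* library 2, above 2.03 to 3.09 CPM in the rest. *Cdkn2c* was at 53.0 CPM in P9 control library 4, which was also the P9 control library lowest in *Ccnd1*, and at 1.51 CPM in E14.5 *Isl1CKO* library 1. These values are given without an explanation.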

How the results depend on the processing

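*Ccnd2* kept its direction under every alternative run in each comparison, and its call except with total counts alone at P9. With 1 library left out its log2 fold change was -0.89 to -0.79 at P9, 1.26 to 1.58 at E14.5 and -2.42 to -2.09 for the difference between the ages, with adjusted p up to 0.0026, 0.022 and 0.00036 (edgeR). The number of the 9 genes called at P9 was 1, *Ccnd2*, with no filter and with the replicate number as a block, and 1 to 2 with 1 library left out. With total counts alone it was 2, but these were *Ccnd3* (2.13) and *Cdkn1b* (0.85) and not *Ccnd2* and *Cdk16*. For the difference between the ages it was 1 without the 3 E14.5 *Isl1CKO* libraries highest in macrophage markers, a setting chosen after seeing the data, and 2 otherwise or 3 with total counts alone. Libraries of the same number did not deviate together (correlations of -0.026 to 0.054 at P9 and -0.051 to 0.038 at E14.5, and 2 of 5 closest to their own number at each age). With the replicate block *Cdk16* at P9 was at -1.12 (adjusted p = 0.067, edgeR), *Ccnd2* was at -0.80 at P9 and 1.48 at E14.5, and *Cdkn2c* at P9 was at 0.34.

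Signs turned only for values that were not called, beside *Cdkn1b* between the ages, called at -0.90 with total counts alone. With total counts alone these were *Cdk4* at P9 (0.37) and its difference between the ages (0.27), *Cdkn2c* at P9 (0.59) and its difference (0.17), *Ccnd1* at E14.5 (0.019) and *Cdk6* between control ages (-0.21). limma-trend gave *Ccnd1* at E14.5 as 0.11. Without the 3 libraries *Cdk6* at E14.5 was 0.37, and the differences between the ages were 0.016 for *Ccnd1* and -0.24 for *Cdk6*. With 1 library left out the range was -0.13 to 0.31 for *Cdk6*, -0.14 to 0.88 for *Cdkn1a* and -0.28 to 0.50 for *Cdkn2c* at P9, -0.35 to 0.28 for *Ccnd1* and -0.11 to 0.32 for *Cdkn1a* at E14.5, and -0.24 to 0.79 for *Cdkn1a* and -1.09 to 2.22 for *Cdkn2c* in the difference. For all of these the cause was not tested. *Cdk16* between control ages was not called in the reported fit but was under 3 alternatives.

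Of all genes, 671 were called at P9 (372 higher), against 3975 with total counts alone (3824 higher), 1677 with DESeq2, 333 with the block and 1814 in 1 fit of 22 libraries. At E14.5 228 were called, against 653 with DESeq2, 134 with the block, 59 in 1 fit, 42 without the 3 libraries and 114 to 227 with 1 library left out. The difference between the ages was called for 359 genes, against 3199 with total counts alone (3109 higher), 924 with DESeq2, 130 with the block, 57 without the 3 libraries and 219 to 484 with 1 left out. Between control ages 5347 were called (2721 higher), against 10636 with total counts alone (604 higher). For *Cdkn2c* at E14.5, with 26 counts in *Isl1CKO* and 24 in control, depth limits what could be seen.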
